A study of Homo sapiens with 4 samples.

Results

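Trophoblast and amnion-like markers were followed through embryoid bodies, floating clumps of human embryonic stem cells that have started to differentiate. The set held 10 named genes, CGA, HAND1, GATA2, GATA3, TFAP2A, TFAP2C, KRT7, KRT23, VGLL1 and CYP19A1, out of 18640 genes measured. A gene's value was the mean over all probesets, small groups of probes within an exon, whose only gene symbol in the platform annotation was that gene. All 10 genes were found, on 99 probesets in all, and no filter on low values was applied. The parent line was BG01V, an embryonic stem cell line whose karyotype is abnormal. RNA was measured on 4 Affymetrix arrays, 2 from embryoid bodies that received the vehicle DMSO and 2 from embryoid bodies that received 10 µM TBBD for 48 h. The series title calls TBBD a methylation inhibitor for H3 histone, at its arginine 17. Treatment generally fell between day 2 and day 4 of embryoid body formation. Aggregates formed in suspension in conditioned medium and then grew on gelatin in medium with serum replacement and fetal bovine serum, alike in both groups. The arrays carry a replicate number, 1 or 2, in each group. The labels do not say what the number stands for or whether cultures were separate, and the p-values therefore cover only spread among these samples, which may be technical.

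Trophoblast is the outer epithelium of the embryo that builds the placenta. It arises under the control of GATA2, GATA3, TFAP2A and TFAP2C, and fuses to a syncytium that makes chorionic gonadotropin and oestrogen. Human embryonic stem cells exposed to BMP signals can switch on many of the same genes, in cells described as trophoblast or as amnion, the thin sheet of ectoderm around the embryo. Several of these genes are shared with other tissues, HAND1 with lateral mesoderm and heart, GATA2 with blood and endothelium, TFAP2A with neural crest and surface ectoderm, and KRT7 with many simple epithelia.

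Upstream sequences from RefSeq (GRCh38.p14) were searched for short motifs, since CGA, VGLL1 and CYP19A1 had positive and the other 7 genes negative mean differences between replicate numbers, 5 of those 7 without passing the test. The table matched 7 of the 10 genes, with 20 gene starts, and TFAP2C, KRT7 and KRT23 were not matched. The 250 bases before the start are shown for the 3 genes with 1 listed start, CGA and VGLL1 with positive and HAND1 with a negative mean difference. They are written 5′ to 3′ on the gene's strand, and capitals mark motif matches on either strand.
CGA, chr6:87095107-87095356, minus strand: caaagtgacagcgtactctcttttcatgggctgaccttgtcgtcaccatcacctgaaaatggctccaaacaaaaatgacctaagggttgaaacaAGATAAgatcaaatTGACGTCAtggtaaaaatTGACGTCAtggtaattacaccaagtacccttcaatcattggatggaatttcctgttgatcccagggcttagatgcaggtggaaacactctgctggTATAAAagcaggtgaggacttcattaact
VGLL1, chrX:136531965-136532214, plus strand: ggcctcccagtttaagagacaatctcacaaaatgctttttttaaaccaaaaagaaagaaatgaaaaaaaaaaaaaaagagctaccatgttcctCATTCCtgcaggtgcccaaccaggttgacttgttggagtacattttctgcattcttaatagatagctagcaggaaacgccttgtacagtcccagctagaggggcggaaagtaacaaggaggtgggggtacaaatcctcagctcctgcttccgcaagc
HAND1, chr5:154478228-154478477, minus strand: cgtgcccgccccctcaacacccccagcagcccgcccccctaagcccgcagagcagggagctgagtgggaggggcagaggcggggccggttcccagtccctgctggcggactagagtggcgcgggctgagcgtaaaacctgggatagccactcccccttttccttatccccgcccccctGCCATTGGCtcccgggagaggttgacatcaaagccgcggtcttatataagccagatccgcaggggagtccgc
In CGA the capitals mark a GATA motif (AGATAA), 2 copies of the cyclic AMP response element TGACGTCA and a TATA box (TATAAA), in that order. In VGLL1 they mark 1 TEAD motif (GGAATG, read on the opposite strand) and in HAND1 1 AP-2 motif (GCCNNNGGC). Of the 20 starts, the cyclic AMP element was found at 1, that of CGA, and it is held by 1.65% of all 35116 upstream windows of this length. The AP-2 motif was found at 6 starts of 3 genes (19.8% of all windows), the TEAD motif at 4 starts of 3 genes (11.9%), AGATAA at 2 starts of 2 genes (9.17%), TGATAA at 1 start (6.66%) and TATAAA at 4 starts of 4 genes (10.7%). No match overlapped another in the 3 sequences shown. These matches describe the letters of the windows and are not binding data.

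The median probeset signal of an array was 6.39 to 6.42 on the log2 scale, and the number of arrays limits the precision. All values below are log2 RMA signals, and differences are on the same scale. Olfactory receptor genes, not expected in these cells, gave a rough mark for dim signal, since no detection call was used here. Their median level over 371 genes was 5.40 and their 95th percentile 5.66. All 4 arrays lay above that percentile for 8 of the 10 markers. CGA and CYP19A1 lay above it only on the 2 replicate 2 arrays. The labelled material was checked on POU5F1, a pluripotency factor, which read 7.75 and 7.20 on DMSO replicates 1 and 2 and 7.73 and 6.60 on TBBD replicates 1 and 2. NANOG, of the same class, lay between 6.49 and 6.79 and SOX2, shared with neural cells, between 5.74 and 7.49. AFP, of yolk sac and fetal liver, lay between 5.50 and 8.22 and COL1A1, a collagen of mesenchyme, between 8.90 and 10.79, the higher values of both on the replicate 2 arrays.

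The comparison of TBBD with DMSO asked how expression responds to the compound. KRT7, a keratin of simple epithelia, had the largest mean difference among the 10 markers, 0.49 ± 0.28 (SE), followed by CGA at 0.43 ± 1.16 and KRT23 at 0.40 ± 0.56. CGA was dim on the replicate 1 arrays, so its mean comes from the replicate 2 arrays, where the difference was 0.87. Replicate number was not a term in this fit, so its SEs and intervals also hold the difference between the numbers. None of the 10 passed limma's test, and 0 of 18640 genes did (0% of genes called, adjusted p under 0.05). At an unadjusted p under 0.05 limma gave 139 genes, or 0.746%, and 0 of the 10 markers. The median difference was 0.18 over the 10 markers and -0.0035 over all genes, with 7 markers higher and 3 lower with TBBD. For no marker did both TBBD arrays lie on 1 side of both DMSO arrays, against 20.9% of all genes. The direction held within both replicate numbers for 3 markers, KRT7, KRT23 and VGLL1, all higher with TBBD, where 21.5% of all genes were higher in both numbers. Leaving out an array leaves the numbers unequal, and the markers' median was then -0.30 without TBBD replicate 1, 0.46 without TBBD replicate 2, 0.03 without DMSO replicate 2 and 0.17 without DMSO replicate 1. KRT7 alone of the 10 kept its direction in all 4 such fits, whereas KRT23 turned to -0.35 without TBBD replicate 1 and -0.05 without DMSO replicate 2, and CGA to -1.07 without TBBD replicate 2 and -0.62 without DMSO replicate 1. VGLL1 stood at -0.15 without DMSO replicate 1 and without TBBD replicate 2. With 2 arrays against 2, an exact permutation test of 1 gene could not go below p = 0.333.

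**Figure D1:**
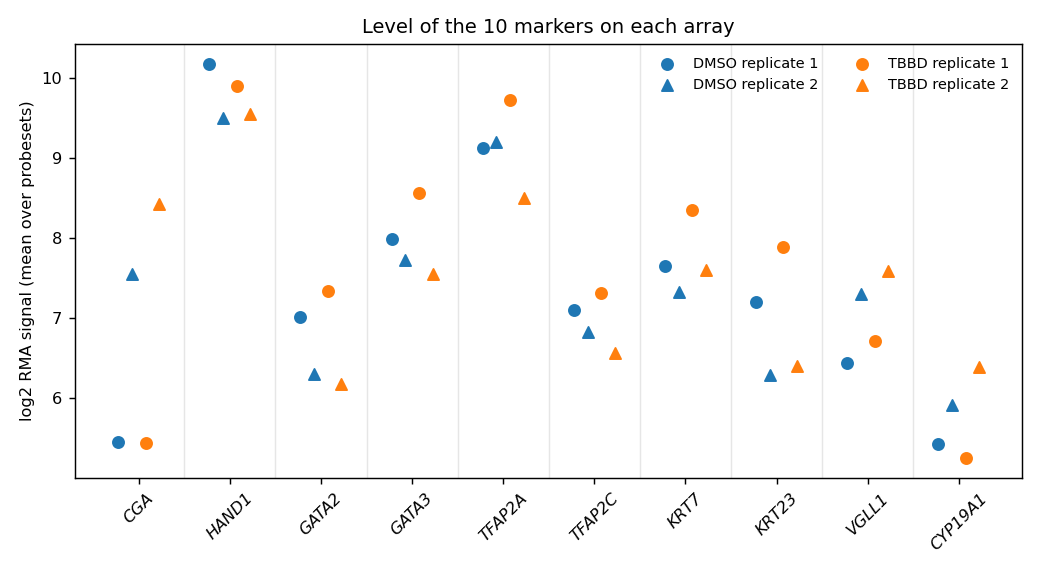
Mean log2 RMA signal of each marker on each of the 4 arrays, with DMSO in blue, TBBD in orange, circles for replicate 1 and triangles for replicate 2. Circles and triangles separate for 9 of 10 genes, all but TFAP2A, whereas the colours overlap for every gene. Of all 18640 genes, 51.0% separate by replicate number and 20.9% by treatment.

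HAND1, a basic helix-loop-helix factor of trophoblast, extraembryonic and lateral mesoderm, read 10.18 and 9.50 on DMSO replicates 1 and 2 and 9.90 and 9.55 on TBBD replicates 1 and 2. Both replicate 1 arrays lay above both replicate 2 arrays, and the treatments overlapped. TBBD minus DMSO was -0.27 in replicate 1 and 0.05 in replicate 2, with a mean of -0.11 and a 95% confidence interval from -0.79 to 0.57.

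GATA2, a zinc finger factor of trophoblast and blood, read 7.01 and 6.30 with DMSO and 7.34 and 6.18 with TBBD, replicate 1 first. GATA3, its close relative and an early trophoblast factor, read 7.98 and 7.72 with DMSO and 8.57 and 7.55 with TBBD. In both genes TBBD replicate 1 was the highest array and TBBD replicate 2 the lowest. GATA2 differed with TBBD by 0.33 in replicate 1 and -0.12 in replicate 2, a mean of 0.10 with a 95% interval from -1.04 to 1.24. GATA3 differed by 0.59 and -0.17, a mean of 0.21 with an interval from -0.69 to 1.10. Neither gene thus had the same sign in both numbers.

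TFAP2A, an AP-2 factor of trophoblast, surface ectoderm and neural crest, read 9.12 and 9.20 with DMSO and 9.72 and 8.50 with TBBD. The DMSO arrays were close together, with an SD of 0.06, and the TBBD arrays lay on either side of them, with an SD of 0.87. TBBD minus DMSO was 0.60 in replicate 1 and -0.70 in replicate 2. These values of opposite sign averaged to -0.05, with a 95% interval from -1.08 to 0.99. TFAP2C, the AP-2 factor of trophoblast and early germ cells, read 7.09 and 6.83 with DMSO and 7.32 and 6.56 with TBBD. It showed the same order of arrays as the GATA genes, with TBBD minus DMSO at 0.22 in replicate 1 and -0.26 in replicate 2. Its mean difference was -0.02, with an interval from -0.73 to 0.69.

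VGLL1, a cofactor of TEAD transcription factors found in trophoblast, read 6.43 and 7.30 with DMSO and 6.72 and 7.59 with TBBD. TBBD minus DMSO was 0.29 in replicate 1 and 0.29 in replicate 2, the closest match between numbers among the 10 markers. The mean of 0.29 had a 95% interval from -0.76 to 1.33, and this interval also holds the difference of 0.87 between the numbers.

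KRT7, the keratin widely used to mark trophoblast and other simple epithelia, read 7.65 and 7.32 with DMSO and 8.35 and 7.60 with TBBD. TBBD replicate 1 was the highest array, while TBBD replicate 2 lay between the DMSO arrays. The difference was 0.70 in replicate 1 and 0.28 in replicate 2, and the 95% interval of the mean ran from -0.24 to 1.21. KRT23, another keratin, read 7.20 and 6.29 with DMSO and 7.89 and 6.40 with TBBD. Its difference was 0.70 in replicate 1 and 0.11 in replicate 2, with an interval from -1.04 to 1.85. For both keratins the replicate 1 arrays carried the larger value.

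CGA, the alpha subunit that chorionic gonadotropin shares with the pituitary glycoprotein hormones, read 5.45 and 7.55 with DMSO and 5.43 and 8.43 with TBBD. On the replicate 1 arrays it lay at the level of the olfactory receptor genes, and a difference there could not be read. TBBD minus DMSO was -0.02 in replicate 1 and 0.87 in replicate 2, and the 95% interval of the mean ran from -2.56 to 3.41. CYP19A1, the aromatase that makes oestrogen in the placenta and gonads, read 5.42 and 5.91 with DMSO and 5.25 and 6.39 with TBBD. Its difference was -0.17 in replicate 1 and 0.48 in replicate 2, with a mean of 0.15 and an interval from -0.90 to 1.21. Its replicate 1 arrays also lay below the olfactory receptor percentile of 5.66, so the difference there could not be read either. Both products of differentiated trophoblast had their highest value on TBBD replicate 2.

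**Figure D2:**
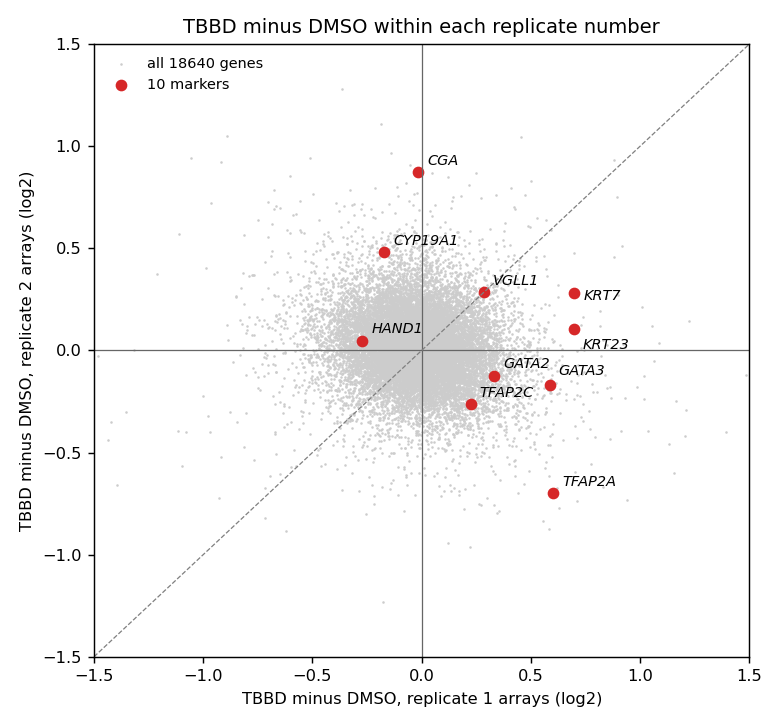
TBBD minus DMSO on the log2 scale for each gene, on the replicate 1 arrays (horizontal) and the replicate 2 arrays (vertical), with the 10 markers in red over all 18640 genes in grey. The dashed line marks equal differences, and 4 genes lie outside the axes. KRT7, KRT23 and VGLL1 are positive on both axes, and TFAP2A is at 0.60 and -0.70.

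TBBD minus DMSO differed more between the replicate numbers for these genes than for the typical gene. It moved between the numbers by a median of 0.54 over the 10 markers and of 0.18 over all genes, dim ones included. The markers' median SE in the fit of TBBD minus DMSO was larger too, 0.40 against 0.14 over all genes. Among the 8 markers above the olfactory receptor percentile on all arrays, the change was largest for TFAP2A at 1.30 and GATA3 at 0.76. CGA and CYP19A1, dim on the replicate 1 arrays, are counted in the median but not placed in this order. The distance between replicates 1 and 2 was larger on the TBBD arrays than on the DMSO arrays for 9 of the 10 markers, HAND1 being the exception and VGLL1 differing by less than 0.01, where 52.8% of all genes had the larger distance with TBBD. With 1 array for each treatment and number, this difference of differences has no replicate and was not tested.

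The arrays numbered 1 and 2 were compared in a second fit, with the number as the only term. CGA was higher on the replicate 2 arrays by 2.55 ± 0.25 (SE), and VGLL1 and CYP19A1 were higher by 0.87 ± 0.14 and 0.82 ± 0.16. For CGA and CYP19A1 the replicate 1 arrays lay at the level of the olfactory receptor genes, so the sizes 2.55 and 0.82 are differences in signal from a dim floor and do not give the fold in RNA. KRT23 and GATA2 were lower there, by -1.20 ± 0.21 and -0.93 ± 0.13. Limma called 5 of the 10 markers in this comparison, where 5.37% of all genes were called. The markers were chosen with earlier results of these data known. Higher on replicate 2 were CGA (limma adjusted p = 0.00302), VGLL1 (adjusted p = 0.0186) and CYP19A1 (adjusted p = 0.0359), against 3.35% of all genes called higher. Lower were GATA2 (limma adjusted p = 0.0115) and KRT23 (adjusted p = 0.0231), against 2.02% called lower. With treatment added as a block CYP19A1 missed the threshold (limma adjusted p = 0.0508), leaving 4 of the 10 called.

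The remaining 5 markers did not pass limma's adjusted threshold between the numbers. HAND1 differed by -0.51 ± 0.12 (limma adjusted p = 0.0553) and TFAP2C by -0.51 ± 0.13 (limma adjusted p = 0.0753). GATA3 differed by -0.64 ± 0.19 (limma adjusted p = 0.104), KRT7 by -0.54 ± 0.22 (limma adjusted p = 0.213) and TFAP2A by -0.57 ± 0.26 (limma adjusted p = 0.267). In TFAP2A the DMSO arrays differed by 0.08 between the numbers and the TBBD arrays by -1.22, so its mean comes from the TBBD arrays. The arrays of 1 number lay wholly above those of the other for 9 of the 10 markers, against 51.0% of all genes. Of these, 3 were higher on replicate 2 (25.1% of all genes) and 6 lower (25.9% of all genes). Without TBBD replicate 2 the number of markers called was 3, CYP19A1 standing at 0.58 (limma adjusted p = 0.114) and VGLL1 at 0.73 (limma adjusted p = 0.0697). Without DMSO replicate 1 these genes also missed the threshold, CYP19A1 at 0.91 (limma adjusted p = 0.0869) and VGLL1 at 0.73 (limma adjusted p = 0.0737), while GATA3 at -0.93 (limma adjusted p = 0.0309) and KRT7 at -0.89 (limma adjusted p = 0.0460) were called. Without TBBD replicate 1 CYP19A1 stood at 0.73 (limma adjusted p = 0.119), and HAND1 was called at -0.65 (limma adjusted p = 0.0487). CGA, GATA2 and KRT23 were called with any 1 array left out. HAND1 was called with the median over probesets, at -0.77 (limma adjusted p = 0.0236). What the number stands for is not in the labels, and a culture, a day or a handling step cannot be told apart.

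**Figure D3:**
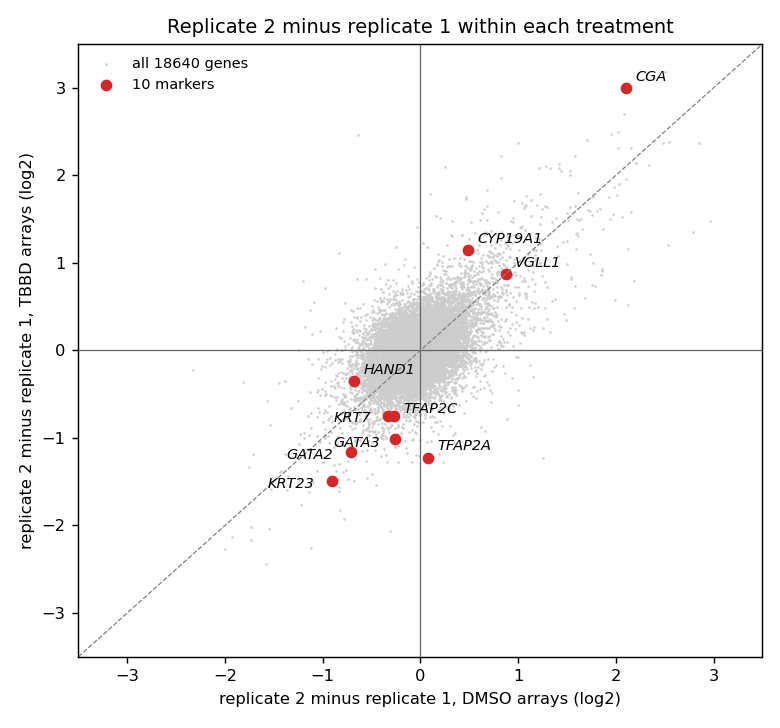
Replicate 2 minus replicate 1 on the log2 scale for each gene, on the DMSO arrays (horizontal) and the TBBD arrays (vertical), with the 10 markers in red over all 18640 genes in grey. The dashed line marks equal differences, and 2 genes lie outside the axes. CGA lies at 2.10 and 2.99, VGLL1 and CYP19A1 are positive on both axes, and 6 of the other 7 markers are negative on both, TFAP2A being at 0.08 and -1.22.

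The probesets of a gene are not replicates, but they show how far its value rests on a few exons. All 5 CGA probesets were higher on the replicate 2 arrays, by 1.21 to 4.42. All 10 KRT7 and all 10 KRT23 probesets, all 11 of GATA3 and all 12 of TFAP2A were lower there in the mean of both treatments, as were 13 of 14 for GATA2. Both replicate 2 arrays lay below both replicate 1 arrays on fewer of them, 5 of 10 for KRT7, 6 of 10 for KRT23, 6 of 11 for GATA3 and 4 of 12 for TFAP2A. On the DMSO arrays alone, 8 of the 12 TFAP2A probesets were higher on replicate 2. CYP19A1 was higher on replicate 2 on 18 of 21 probesets and VGLL1 on 4 of 5. TFAP2C was lower on 7 of 8, with the last at 1.18, and its difference with the median over probesets was -0.17. HAND1 had 3 probesets, of which 2 stood at -0.77 and -0.75 and 1 at -0.02. Of the 21 CYP19A1 probesets, 11 had a mean above the olfactory receptor percentile. None of these counts was made over the probesets of all genes, so no excess can be read from them.

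For TBBD minus DMSO the probesets were more divided. In replicate 1 all 12 TFAP2A probesets were higher with TBBD, by 0.29 to 1.00, and in replicate 2 11 of 12 were lower, the median being -0.70. All 10 KRT7 probesets were higher with TBBD in replicate 1, and 7 of 10 in replicate 2, where they ran from -0.41 to 1.72. KRT23 was higher on 9 of 10 in replicate 1 and on 7 of 10 in replicate 2. CGA was higher on 2 of 5 in replicate 1 and 4 of 5 in replicate 2. Over all 99 probesets, 36 were higher with TBBD in both numbers, 10 lower in both and 53 mixed. The same count over the probesets of all genes was not made, so no excess can be read from it. Genes with many probesets weigh more in it, 21 of the 99 being from the dim CYP19A1.

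**Figure D4:**
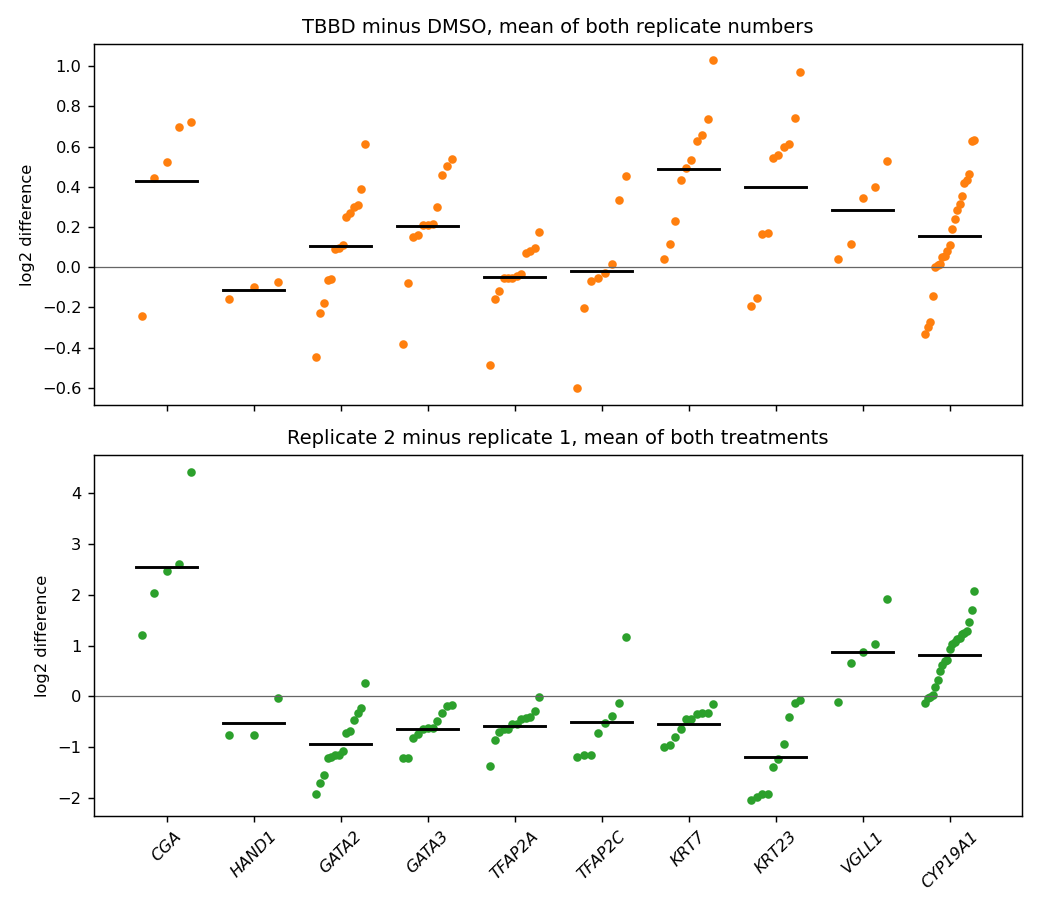
Log2 difference of each probeset of the 10 markers, sorted within each gene, for TBBD minus DMSO (top, mean of both replicate numbers) and replicate 2 minus replicate 1 (bottom, mean of both treatments), with the gene's mean as a black bar. All KRT7 probesets lie above 0 in the upper panel, and all 5 CGA probesets lie above 1 in the lower panel.

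Other genes of trophoblast and amnion were taken from 4 lists that held none of the 10 markers, 87 measured genes in all. With TBBD 0 of the 87 were called by limma, 53 lying higher and 34 lower, with a median of 0.02 against -0.0035 over all genes. Between the replicate numbers limma called 27 of the 87, with 14 higher and 13 lower on replicate 2, against 5.37% of all genes. Both directions thus occurred among these genes too. These lists, and those of relatives and other cell types below, were chosen with earlier results of these data known. The counts are therefore descriptions beside the share of all genes and were not tested as sets.

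Among 18 trophoblast regulators, the median of replicate 2 minus replicate 1 was -0.39, with 1 called higher and 5 called lower by limma. Of all genes, 3.35% were called higher and 2.02% lower. Lower on replicate 2 were DLX5, a homeobox factor of placenta and bone, by -1.22 ± 0.13 (SE), and CDX2, a factor of early trophectoderm and gut, by -0.99 ± 0.17. ETS2, a factor needed for trophoblast in mice, was higher by 0.90 ± 0.15. ELF5, a trophoblast stem cell factor, stood at 0.29 ± 0.11 and was not called. For TBBD minus DMSO, TP63, a factor of cytotrophoblast and stratified epithelium, stood at 0.39 ± 0.21 and EOMES, shared with primitive streak, at -0.83 ± 0.38, and neither passed.

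Among 42 measured placental products, limma called 6 higher and 1 lower on replicate 2. Of all genes, 3.35% were called higher and 2.02% lower, and the count of 1 lower is near its share. PEG10, an imprinted retrotransposon-derived gene of the placenta, was higher by 2.21 ± 0.14 (SE) and PAPPA2, a protease of IGF binding proteins, by 1.24 ± 0.11. HPGD, which breaks down prostaglandins, was lower by -1.87 ± 0.12. CSH1, placental lactogen, stood at -1.28 ± 0.45, was not called, rested on 1 probeset and has near-identical copies, so its value is uncertain. With TBBD, PSG4, below the olfactory receptor percentile on 3 of the 4 arrays, stood at 0.68 ± 0.27. ALPP, placental alkaline phosphatase, stood at -0.31 ± 0.12, its TBBD arrays at 5.50 and 5.62 lying below that percentile. Neither passed the test, and both also have near-identical relatives. CGB5 and CGB7, beta subunits of chorionic gonadotropin from a cluster of near-identical genes, were measured on 1 probeset each and stood at 0.06 and 0.0025 between the numbers, beside the 2.55 of CGA.

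In the cytotrophoblast epithelium list of 15 measured genes, limma called 2 higher and 4 lower on replicate 2. The shares over all genes were 3.35% called higher and 2.02% called lower. VTCN1, an immune checkpoint protein also known from amnion, was higher by 1.39 ± 0.20 (SE) and the integrin gene ITGB4 by 0.49 ± 0.10. The transporter gene ABCG2 was lower by -1.32 ± 0.21 and EPCAM, an epithelial adhesion protein also found on pluripotent cells, by -1.0 ± 0.20. In the amnion list of 12 genes, limma called 5 higher and 3 lower, against the same shares. IGFBP3 was higher by 1.76 ± 0.15 and GABRP, a GABA receptor subunit, by 1.72 ± 0.13. The protease gene CTSV was lower by -1.22 ± 0.17 and BMP4, a ligand that drives both fates, by -0.64 ± 0.14. BAMBI, a BMP pseudoreceptor, stood at 0.24 ± 0.13 with TBBD and was not called.

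The families of the markers were compared through 20 relatives, of which limma called 2 between the numbers, both higher on replicate 2, against 3.35% of all genes called higher. HAND2, the relative of HAND1 in heart and limb, was higher by 1.51 ± 0.15 (SE), and TFAP2B, the AP-2 factor of neural crest and kidney, by 1.38 ± 0.13. Their relatives HAND1 and TFAP2A lay at -0.51 and -0.57. GATA4 stood at -0.58 ± 0.14 and TEAD1 at -0.37 ± 0.12, neither called. With TBBD, TEAD2 stood at -0.18 ± 0.13 and was not called either.

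Markers of other cell types that an embryoid body can hold also differed between the numbers, where 3.35% of all genes were called higher on replicate 2 and 2.02% lower. Of 15 liver and visceral endoderm markers, limma called 11 higher on replicate 2 and 0 lower, with a median of 1.55, and the mean level of the list was 5.54 and 5.66 on the replicate 1 arrays (DMSO, TBBD) and 6.79 and 7.02 on the replicate 2 arrays. The replicate 1 levels of that list were close to the olfactory receptor percentile of 5.66. Of 16 mesenchyme markers it called 12 higher and 0 lower, with a median of 0.90 and mean levels of 8.16 and 8.29 on replicate 1 and 9.25 and 9.44 on replicate 2. Of 15 pluripotency markers it called 1 higher, SOX2, and 6 lower, with a median of -0.47 and mean levels of 7.50 and 7.25 against 7.18 and 6.93. These lists moved with the replicate number beside the 10 markers, and their part in the markers' differences was not tested. The lists were chosen with earlier results of these data known. In bulk RNA, fewer cells of a type and less RNA per cell cannot be told apart.

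Lists of the tissues that share a marker were compared as well, against the same shares of 3.35% higher and 2.02% lower. Neural crest markers, a tissue of TFAP2A, had 4 of 14 called higher and 0 lower by limma, with a median of 0.43. Blood and endothelial markers, a tissue of GATA2, had 6 of 16 called higher and 0 lower, with a median of 0.28, the opposite direction to GATA2 itself. Lateral mesoderm and heart markers, a tissue of HAND1, had 4 called higher and 2 lower of 16, with a median of -0.00065. Surface ectoderm markers had 0 higher and 2 lower of 14, with a median of -0.06. Neural markers had 1 higher and 0 lower of 14, with a median of -0.02, and primitive streak markers 0 higher and 1 lower of 12, with a median of -0.66. Counts of 1 in lists of this size are near those shares.

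With TBBD, limma called 0 genes of any of these lists. All 15 pluripotency markers and all 12 streak markers lay lower with TBBD, by medians of -0.21 and -0.38. All 15 liver and visceral endoderm markers lay higher, by a median of 0.14. Of all 18640 genes, 9538 lay lower and 9100 higher. The streak median was -0.67 in replicate 1 and -0.07 in replicate 2. Lower in both numbers were 8 of the 12 streak and 10 of the 15 pluripotency markers, against 4291 of all genes. Higher in both were 9 of the 15 liver and visceral endoderm markers, against 4007 of all genes. These lists were chosen with earlier results of these data known. Mesenchyme markers had a median of 0.12 and blood and endothelial markers one of 0.07, beside the 0.18 of the 10 trophoblast and amnion-like markers.

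**Figure D5:**
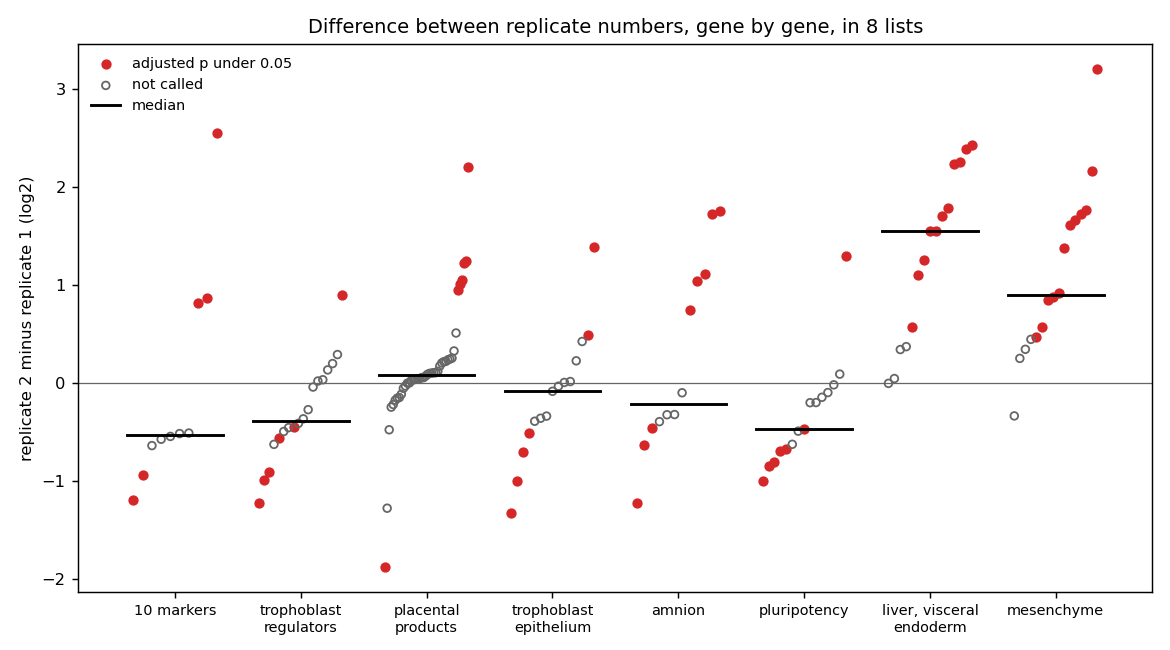
Replicate 2 minus replicate 1 on the log2 scale, 1 point per gene, sorted within each of 8 gene lists, with genes past limma's adjusted p of 0.05 in red and the list's median as a black bar. The 10 markers and the amnion list hold called genes in both directions, whereas all called liver, visceral endoderm and mesenchyme genes lie above 0.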

How the data were processed

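RNA from 4 samples was hybridised to Affymetrix HuGene-1_0-st arrays. The authors used RMA, per the submitters' processing notes, and no version is stated in the sources used here. Deposited are log2 RMA signals, 1 per exon-level probeset and array, the log2 scale being read from the values themselves. Of 247312 probesets, 277 with a placeholder cell were left out. The 218927 probesets with 1 gene symbol were averaged per gene to 18640 genes, with older symbols updated through RefSeq where 1 current gene matched.

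TBBD was compared with DMSO, and replicate number 2 with 1, by limma 3.58.1 in R 4.3.3 with 1 term each, two-sided, adjusted by Benjamini-Hochberg over all genes at 0.05. On simulated arrays with 18640 genes and independent noise, the fit of TBBD minus DMSO recovered 22.4% of 67 genes changed 2-fold, and 85.1% of 67 changed 4-fold. These rates do not describe the 10 markers, whose median SE was 0.40 against 0.14 over all genes. Measured arrays of the same replicate number also share deviations, which the simulation left out. Alternatives were normalization, centring, dim genes, probeset summary, variance prior, blocks and each array left out. Members, lists and motifs were chosen with earlier results of these data known. Named genes were all members, and per companion list, among genes whose arrays did not overlap, the largest per direction with TBBD and the 2 largest between numbers. POU5F1, NANOG, SOX2, AFP and COL1A1 were a check of the tissue. CGB5, CGB7 and the genes named in the closing part were chosen after their values were seen.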

Additional observations from a re-analysis of the deposited data

How the results depend on the processing

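With TBBD, 0 genes and 0 of the 10 markers passed limma's adjusted threshold in every alternative run. Apart from arrays left out, 1 of the 79 values of single markers for TBBD minus DMSO turned its direction: TFAP2C, to 0.092 with the median over probesets. With an array left out, 16 of 40 turned, and the range was -1.07 to 1.92 for CGA, -0.45 to 0.22 for HAND1, -0.48 to 0.68 for GATA2, -0.30 to 0.71 for GATA3, -0.66 to 0.56 for TFAP2A, -0.40 to 0.36 for TFAP2C, -0.35 to 1.15 for KRT23, -0.15 to 0.72 for VGLL1, -0.42 to 0.73 for CYP19A1 and 0.11 to 0.87 for KRT7, which alone kept its direction. Leaving out an array makes treatment and replicate number unequal by construction. With replicate number added as a block, limma called 0 genes and 0 markers, with 496 of 18640 genes at an unadjusted p under 0.05. There the unadjusted 95% intervals were 0.16 to 0.82 for KRT7, 0.02 to 0.78 for KRT23 and 0.02 to 0.56 for VGLL1. The intervals of all other markers held 0, such as -0.05 to 0.91 for CGA and -0.69 to 0.59 for TFAP2A. The SE of CGA was 0.20 with the block and 1.16 in the main fit. Deviations of the arrays with the same number correlated at 0.57 across genes over 2 pairs, too few to take the numbers as pairs. Between the numbers, the 1001 genes called became 653 with treatment as a block and between 368 and 685 with an array left out. The markers called lay between 3 and 5 with an array left out and stood at 5 in the main fit. Of 79 marker values, 2 lost their call, both of CYP19A1 (adjusted p = 0.0803 with the median over probesets and 0.0508 with treatment as a block in limma), and 4 gained one, all of HAND1. None of the 10 markers changed direction between the numbers under any alternative. CYP19A1 was not among the 12426 genes left without the dim genes.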

Other observations

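ERVW-1 and ERVFRD-1 were higher on the replicate 2 arrays, as CGA and CYP19A1 were. They encode the syncytins, envelope proteins of retroviral origin that fuse trophoblast cells. Both were picked after their values were seen, from the 42 measured placental products. Of those, limma called 6 higher and 1 lower, and the median was 0.08. Of all genes, 3.35% were called higher and 2.02% lower. HSD3B1, CYP11A1, CSH2 and INSL4 of the same list stood at -0.15, 0.22, 0.04 and 0.03 and were not called. ERVW-1 read 5.50 and 6.18 on DMSO replicates 1 and 2 and 5.56 and 6.89 on TBBD replicates 1 and 2. It was higher on replicate 2 by 1.01 ± 0.21 (SE, limma adjusted p = 0.0399). ERVFRD-1 read 5.42 and 6.20 with DMSO and 5.39 and 6.72 with TBBD, and was higher on replicate 2 by 1.05 ± 0.17 (SE, limma adjusted p = 0.0172). Like CGA and CYP19A1, both were lowest on the replicate 1 arrays, near the olfactory receptor median of 5.40, and highest on TBBD replicate 2, so their sizes too are taken from a dim floor. MSX2, TBX3 and TEAD4, regulators of early trophoblast among other tissues, were lower on replicate 2 by -0.90 ± 0.12, -0.56 ± 0.10 and -0.45 ± 0.10, each called by limma and also picked after their values were seen. Of the 18 regulators listed, 6 were higher and 12 lower on replicate 2. Limma called 1 of them higher, ETS2 at 0.90, and 5 lower, against the same shares. HEY1, ITGB6 and NR2F2 of the amnion list were higher by 0.75 ± 0.10, 1.05 ± 0.12 and 1.11 ± 0.10, each called by limma. They too were picked after their values were seen. That list had 5 of its 12 genes higher and 7 lower on replicate 2, with a median of -0.21. Limma called 5 of them higher and 3 lower, against the same shares of all genes.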
